A study of Sus scrofa with 6 samples.

Results

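On chromosomes 1, 10, 11, 12 and 13, 315 of 88582 merged regions carried a methylated-DNA peak in each of the 3 Wannanhua libraries, overlapped no peak of the 3 Yorkshire libraries and had no Yorkshire peak within 2000 bp of either edge. These isolated Wannanhua-only regions are 0.356% of all merged regions, and the regions chosen in the same way for Yorkshire number 707 (0.798%). A merged region is the span of all peaks of the 6 libraries that overlap by at least 1 bp. Both groups were female purebred pigs, Yorkshire in one and Wannanhua in the other, with 3 libraries of the back muscle longissimus dorsi from each breed. Neither group had a treatment, and no age is given in the sources used here. The labels number the samples but do not name separate animals, and a p-value here reflects only how far these samples spread, and that spread may be technical.

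Methylated DNA immunoprecipitation sequencing (MeDIP-seq) pulls down sheared genomic DNA with an antibody against 5-methylcytosine. In mammals this base lies mostly in CpG dinucleotides, which are methylated across most of the genome and largely unmethylated in the CpG islands of active promoters. A peak therefore marks a stretch with more methylated CpGs than its surroundings in that library, and depends on the number of CpGs as well as on the share of them that is methylated. Yorkshire is a lean Western breed and Wannanhua a local Chinese breed.

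The rule used presence of peaks, so the number of regions and the size of their Wannanhua peaks are descriptions and carry no test. Where no Yorkshire peak was called, the signal missed the peak caller's cutoff, which does not mean that no tags fell there, a tag being a sequenced read kept after duplicates were removed. Wannanhua 1 had 7413391 filtered tags and 33496 peaks on the 5 chromosomes, the fewest peaks of the 6 libraries, while the other 5 had 6728444 to 17108367 tags and 47446 to 61707 peaks. The fragment length estimated by the caller was 97 to 169 bp in Yorkshire and 179 to 202 bp in Wannanhua, and its part in the results was not tested. No sequence was read and no gene, exon or intron was matched to any region, because the genome build of the lists is not given in the sources used here. Coordinates are those of the deposited lists, and fold enrichment and score are the values of the authors' peak caller.

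In all 3 Wannanhua libraries, 2 members stood in the top 10% by score of the library's peaks on the 5 chromosomes. They were a region of chromosome 1 and one of chromosome 11. On chromosome 1 from 164267490 to 164268085, a region of 596 bp, Wannanhua 1, 2 and 3 had 15, 46 and 46 tags. Its fold enrichment, tags over the background estimated around the peak, was 29.4, 34.6 and 35.7, and the 3 summits, the positions of highest pileup, lay within 21 bp of each other. The nearest Yorkshire peak was 13208 bp away. On chromosome 11 from 15691920 to 15692526, a region of 607 bp, the 3 libraries had 19, 34 and 35 tags and a fold enrichment of 35.2, 25.95 and 28.4, with summits within 30 bp. Both regions were narrow, were led by a fold enrichment far above the median of the members, and had no Yorkshire peak within 4 kb.

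Score percentile is the rank of the score among a library's own peaks on the 5 chromosomes, averaged over the 3 libraries. The other 8 of the 10 members with the highest score percentile were on chromosomes 1, 10, 11 and 13. The largest by tags spanned 73306894 to 73308440 on chromosome 10. Wannanhua 1, 2 and 3 had 75, 121 and 85 tags there, and its fold enrichment was 11.6 ± 2.25 (SD, n = 3). Its nearest Yorkshire peak lay 2098 bp away, just beyond the limit of the rule. Chromosome 10 from 2080822 to 2081328 had 17, 42 and 38 tags, from 3568260 to 3569211 it had 20, 43 and 33, and from 811727 to 812123 it had 10, 22 and 26. These 3 lie within 4 Mb of the same chromosome end, and their fold enrichment was 14.5 ± 1.58, 19.2 ± 6.71 and 19.3 ± 2.62. On chromosome 11, the region from 16973393 to 16974074 had 20, 25 and 29 tags and that from 77590398 to 77590919 had 14, 22 and 22. Chromosome 13 from 213556057 to 213557189 had 21, 56 and 39 tags, and chromosome 1 from 206410434 to 206410892 had 12, 26 and 37. In all 10 regions Wannanhua 1, the shallowest library of the breed, had the fewest tags.

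On chromosome 12 both leading members, and on chromosome 13 the second, ranked below these 10. On chromosome 12 they were the region from 17355579 to 17356975, with 41, 72 and 68 tags, and that from 61144138 to 61145242, with 23, 52 and 47. The second on chromosome 13, from 24373296 to 24375162, had 18, 73 and 28 tags, and its summits were 943 bp apart. The score thus placed these 3 regions high, but on chromosome 13 the libraries did not share a summit.

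Members far from any Yorkshire peak were few. A Yorkshire peak lay within 5 kb of all but 113 of the 315, within 10 kb of all but 27 and within 20 kb of all but 4. The farthest spanned 314788579 to 314789273 on chromosome 1, had 9, 36 and 17 tags and had the nearest Yorkshire peak 67286 bp away. It lies 459132 bp from the last peak of the chromosome, and its summits were 335 bp apart. Chromosome 13 from 197977022 to 197977543 was next, at 52978 bp, with 10, 14 and 20 tags and summits within 25 bp. The other two are chromosome 13 from 55180969 to 55181638 (22930 bp, 13, 19 and 31 tags), named after its values were seen, and the region of chromosome 1 from 206410434 given above (20413 bp). These 4 regions were all narrower than the median member. On the other chromosomes the farthest members were chromosome 12 from 51037850 to 51039015 at 14087 bp, chromosome 10 from 4780201 to 4780792 at 12543 bp and chromosome 11 from 69972776 to 69973574 at 10222 bp. In 208 of the 315 members the nearest Yorkshire peak came from Yorkshire 2, in 68 from Yorkshire 1 and in 39 from Yorkshire 3. Yorkshire 2 had the most peaks of the breed, 61707 against 54324 in Yorkshire 1 and 47446 in Yorkshire 3. Whether the counts follow the number of peaks was not tested.

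The limit of 2000 bp parted regions whose tags overlapped, as the 3 nearest on each side show. The 3 members just beyond it, at 2002, 2004 and 2008 bp, had 17, 28 and 26 tags in Wannanhua 1, 2 and 3 (chromosome 1 from 286106156), 15, 38 and 28 (chromosome 12 from 46955111) and 49, 178 and 158 (chromosome 11 from 3021226). The 3 regions just within it, at 1986, 1967 and 1954 bp, had 49, 133 and 102 tags (chromosome 1 from 1537906), 13, 18 and 22 (chromosome 10 from 17357839) and 9, 19 and 21 (chromosome 13 from 99504839). All 392 Wannanhua-only regions within 2000 bp of a Yorkshire peak had median tags of 16, 34 and 32.5 in Wannanhua 1, 2 and 3. Members had 13, 27 and 26. Median fold enrichment was 10.75, 8.505 and 8.445 in the 392 regions, against 13.2, 9.37 and 10.03 in members.

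Most members held a single peak per Wannanhua library, which the 3 libraries placed at nearly the same point. The merged width had a median of 756 bp and ran from 331 to 3945 bp, and 219 members (69.5%) were under 1000 bp. All merged regions had a median of 619 bp, and a larger share of them, 75436 of 88582, was under 1000 bp. Isolated Yorkshire-only regions had a median of 505 bp and regions called in all 6 libraries 773 bp. By median width, members were thus wider than merged regions at large. Each library had exactly 1 peak in 310 members. The summits of the 3 libraries lay within 100 bp in 230 members (73.0%), with a median spread of 47 bp, close to the 42 bp of the Wannanhua summits in the 19161 regions called in all 6 libraries. In all but 2 members the 3 peaks shared a common stretch. The rule joins peaks by overlap, which limits how far apart their summits can lie, so this closeness is a description. The 75th and 90th percentiles of the spread were 107.5 and 352 bp in members, against 75 and 152 bp in regions called in all 6 libraries.

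Tags per member were close to those of shared regions, but fold enrichment was lower. Median tags of members in Wannanhua 1, 2 and 3 were 13, 27 and 26, and the regions shared by all 6 libraries had 14, 33 and 30. As CPM, the tags per 1e6 filtered tags of the library, these are 1.75, 1.58 and 1.69 in members and 1.89, 1.93 and 1.95 in shared regions. The median fold enrichment of members was 13.2, 9.37 and 10.03, against 16.1, 14.2 and 13.6. In every Wannanhua library the fold enrichment of members therefore lay below that of shared regions, which had to pass the caller in all 6 libraries. The members' medians were nearer to those of all peaks of each library, 14.5, 10.96 and 10.9. Called widths of members and shared regions were alike (520, 647 and 664 bp against 492, 633 and 667 bp). By score, the median member stood at the 37.4th, 39.8th and 45.0th percentile of the 3 libraries' peaks on the 5 chromosomes. Members ranked alike in the 3 libraries by CPM (Spearman's rho 0.732 to 0.751 across 315 regions for the 3 pairs of libraries), a description across regions that share their width between libraries. By score percentile the rho was 0.302 to 0.324.

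**Figure D1:**
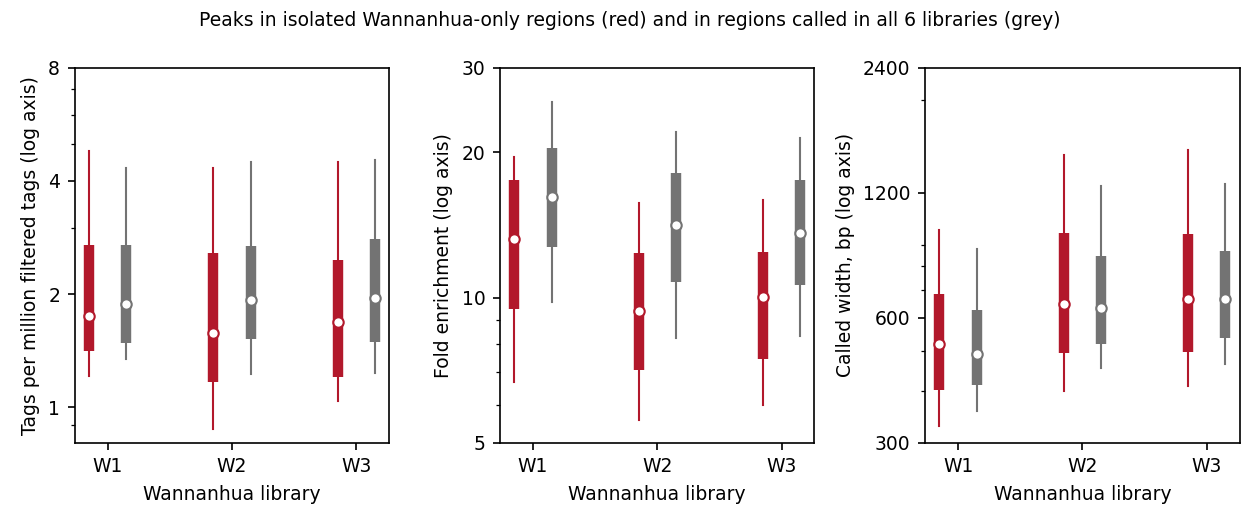
CPM, fold enrichment and called width in bp (log axes) of peaks in Wannanhua 1, 2 and 3 (W1 to W3), for the 315 isolated Wannanhua-only regions in red and the 19161 regions called in all 6 libraries in grey. Points are medians, thick bars quartiles and thin lines the 10th to 90th percentiles: fold enrichment is lower in red in every library (13.2 against 16.1 in W1), while called widths overlap.

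Libraries that took no part in choosing the regions gave a check of the same measure. For each of the 9 pairs of 1 Wannanhua and 1 Yorkshire library, regions were chosen by the same rule in the remaining 2 Wannanhua against the remaining 2 Yorkshire libraries, which gave 741 to 3247 regions. Of these, 67.5% had a peak in Wannanhua 2 and 67.4% in Wannanhua 3 when those were left out, but 31.4% in Wannanhua 1. The Yorkshire libraries left out had a peak in 33.4% (Yorkshire 1), 59.2% (Yorkshire 2) and 22.9% (Yorkshire 3), each value being the mean of 3 pairs. The breeds therefore overlapped: Wannanhua 1 lay below Yorkshire 1 and 2. The mean was 55.4 ± 20.8% in Wannanhua and 38.5 ± 18.7% in Yorkshire (SD, n = 3), a difference within the SD of either breed. With the 33496 peaks of highest score from every library, so that Wannanhua 1 no longer had fewer, the shares were 59.7, 58.1 and 63.7% in Wannanhua 1, 2 and 3 and 25.2, 43.9 and 25.4% in Yorkshire 1, 2 and 3. All Wannanhua values then lay above all Yorkshire values, by a mean of 29.0 percentage points. In this setting a called peak of lower score counted as absent in every library except Wannanhua 1, which kept all its peaks. The separation of the breeds thus held at this uneven cutoff and not with all peaks. The pairs share libraries, so no p is given.

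**Figure D2:**
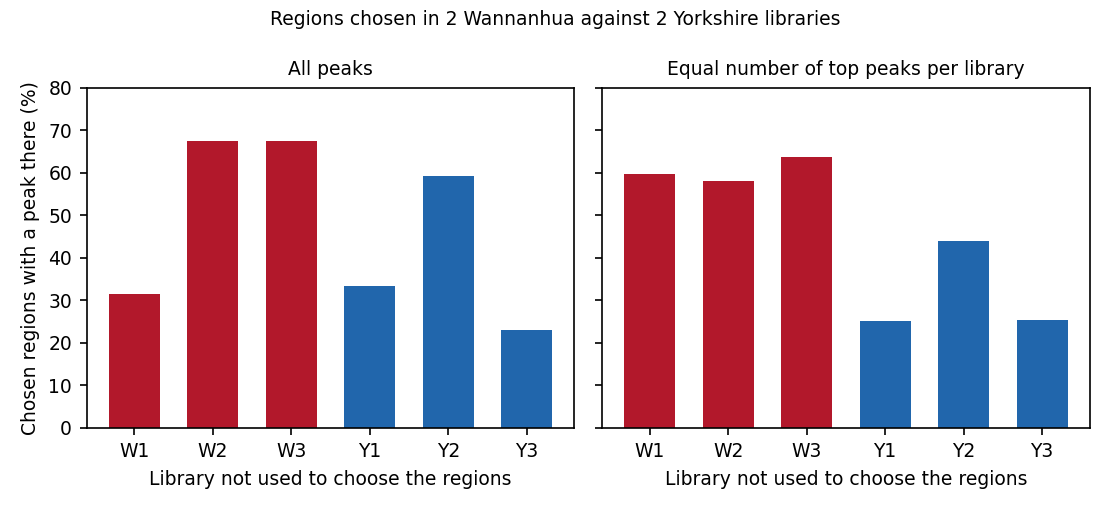
Share in percent of regions with a peak in a library that was not used to choose them, for Wannanhua (W1 to W3, red) and Yorkshire (Y1 to Y3, blue), with all peaks on the left and the 33496 top peaks per library on the right. Each bar is the mean of 3 choices of regions. With equal peaks the Wannanhua bars stand at 58.1 to 63.7% and the Yorkshire bars at 25.2 to 43.9%, where called peaks of lower score count as absent.

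The same rule was applied to all 20 groups of 3 of the 6 libraries. With all peaks, the 3 Wannanhua libraries ranked the sixth, at 315 regions. The largest number, 986, belonged to Yorkshire 2 with Wannanhua 2 and 3, the 3 deepest libraries, and the 3 Yorkshire libraries had 707. Every group that ranked above the Wannanhua group left out Wannanhua 1. Among the 10 groups that contain Wannanhua 1, the Wannanhua group came first, and the next had 171 (Yorkshire 2 with Wannanhua 1 and 2). With the 33496 top peaks from every library the order turned: the Wannanhua group had 834 regions, the most of the 20, followed by the Yorkshire group with 650 and Yorkshire 2 with Wannanhua 2 and 3 with 374. Of the 315 members, 112 (35.6%) overlapped one of the 834. This setting kept all peaks of Wannanhua 1 but cut the lower-scoring peaks of the other libraries, including Yorkshire lists of 47446 to 61707 peaks. A region of the 834 can therefore overlap or lie near a called Yorkshire peak of lower score. Regions free of such peaks in the full lists are the 315 members.

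**Figure D3:**
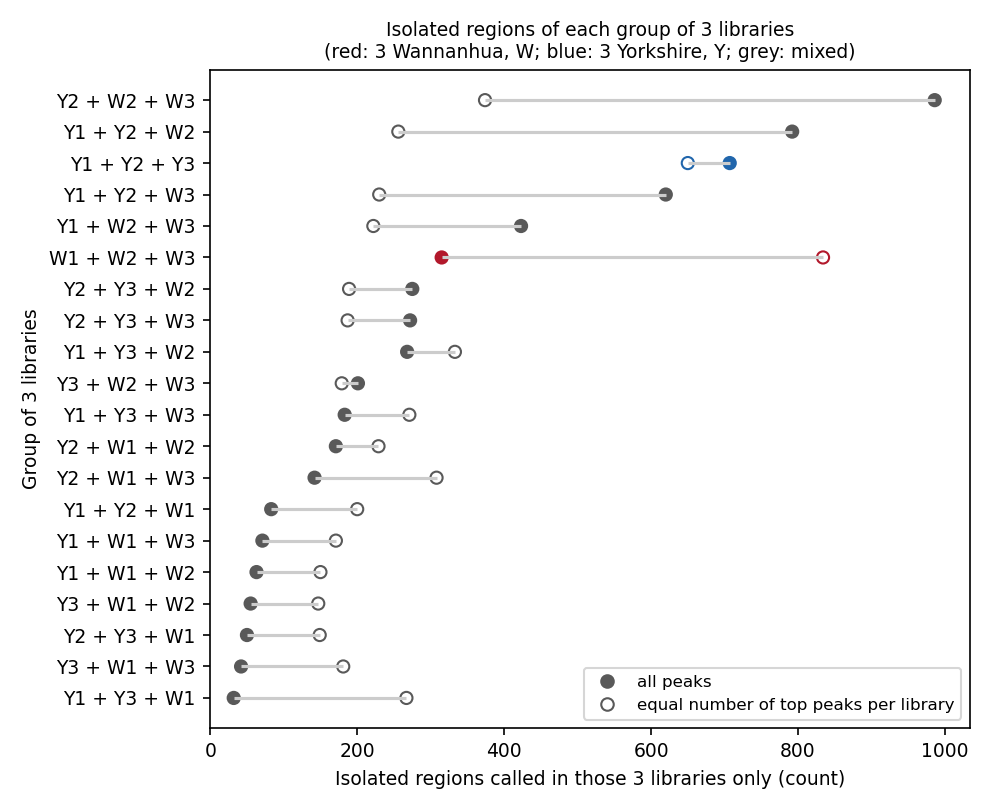
Number of isolated regions called in exactly those 3 libraries, for each of the 20 groups of 3 (W, Wannanhua; Y, Yorkshire), with all peaks (filled) and with an equal number of top peaks per library (open). The group of 3 Wannanhua libraries (red) moves from 315 to 834, the group of 3 Yorkshire libraries (blue) from 707 to 650, and mixed groups are grey.

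Isolated Wannanhua-only regions lay towards chromosome ends on each of the 5 chromosomes. Of the 315, 183 (58.1%, exact 95% binomial interval 52.4 to 63.6%) were within 20 Mb of base 1 or of the last peak, against 36.7% of all merged regions and 30.3% of those called in all 6 libraries. Merged regions with the chromosome mix of the members would have 38.9%. Intervals cover counting error only, since neighbouring regions are not independent. On chromosome 1 the share was 45.2% (47 of 104), against 19.4% of merged regions and 21.2% of the 274 isolated Yorkshire-only regions. On chromosome 10 it was 74.1% (43 of 58), against 53.7% and 58.9%. On chromosome 11 it was 80.6% (29 of 36), against 61.5% and 53.5%. Chromosome 12, where the end zones take up 62.9% of the length, had 82.4% (42 of 51), against 66.1% and 66.2%. On chromosome 13 the share was 33.3% (22 of 66), against 23.2% and 24.1%, and its interval of 22.2 to 46.0% holds both of these values.

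The end share of members was thus higher than that of merged regions and of Yorkshire-only regions on each chromosome. It was not higher than that of the 392 Wannanhua-only regions that lie within 2000 bp of a Yorkshire peak and so are no members, 66.1% of which were near an end (59.9% at the chromosome mix of the members). On chromosomes 1, 10, 11, 12 and 13 these had 50, 72.9, 83.9, 83.75 and 32.7%, above the members on chromosomes 1, 11 and 12 and below them on chromosomes 10 and 13. Per 1000 merged regions, members numbered 7.73 within 5 Mb of an end, 5.74 from 5 to 10 Mb, 4.54 from 10 to 20 Mb, 2.62 from 20 to 40 Mb and 2.18 beyond that. Isolated Yorkshire-only regions stayed between 7.77 and 8.16 in the same zones. Regions called in all 6 libraries went the other way, from 178 per 1000 within 5 Mb of an end to 257 beyond 40 Mb. The zones mix chromosomes, but within chromosomes the rate of members near an end was also 3.42 (chromosome 1), 2.47 (chromosome 10), 2.59 (chromosome 11), 2.39 (chromosome 12) and 1.65 (chromosome 13) times the rate in the interior. For Yorkshire-only regions this ratio ran from 0.720 to 1.24. Of the 10 chromosome ends, 8 had more members per 1000 merged regions than their chromosome as a whole, and the exceptions were the low-coordinate ends of chromosomes 11 (2.80) and 13 (2.71).

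**Figure D4:**
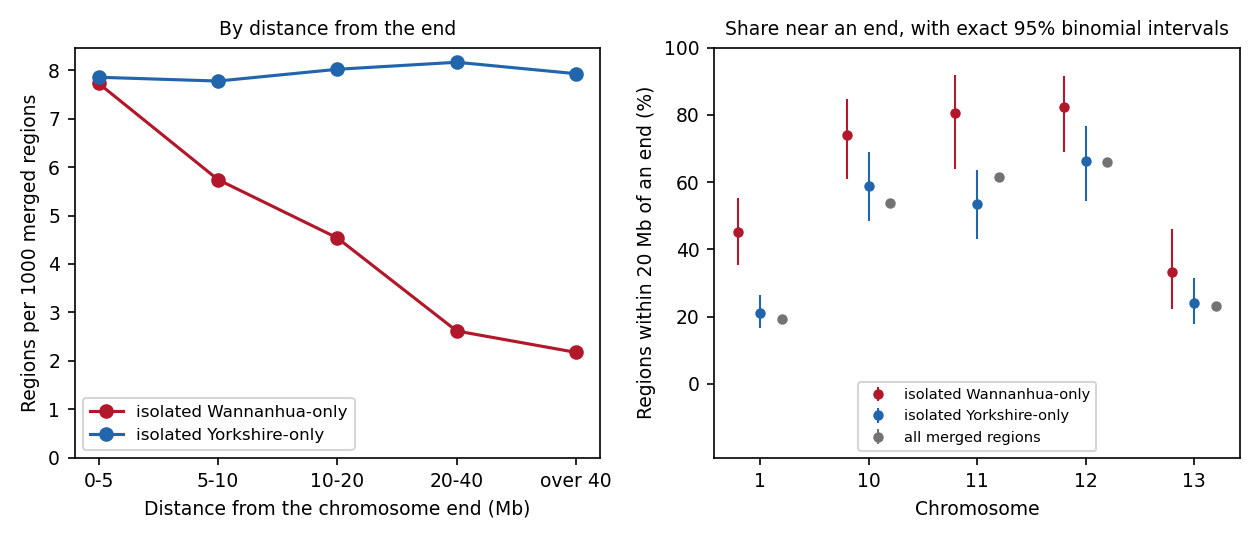
Left: isolated Wannanhua-only (red) and Yorkshire-only (blue) regions per 1000 merged regions by distance from the chromosome end in Mb. Right: percent of regions within 20 Mb of an end on each chromosome with exact 95% binomial intervals, merged regions in grey. The red line falls from 7.73 to 2.18 while the blue one stays between 7.77 and 8.16.

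This position rested in part on Wannanhua 1. Without that library, 1180 regions met the rule and 43.9% of them lay near an end, against 36.5% of merged regions. On chromosome 11 the share was then 60.5%, below the 61.3% of merged regions, and on the other 4 chromosomes it stayed above, with 29.6% against 19.2% on chromosome 1. Leaving out any other library gave pooled shares of 52.7 to 61.8%, with all 5 chromosomes above merged regions each time. With equal numbers of top peaks it was 56.5%, again above on all 5. Among the 20 groups of 3 libraries the Wannanhua group had the highest end share both ways, but mixed groups came close. With all peaks, Wannanhua 1 and 3 with Yorkshire 3 had 54.8% (42 regions), and with equal peaks the same group had 53.6% (181 regions) and Wannanhua 1 and 3 with Yorkshire 2 had 53.2% (308 regions). A wider gap to Yorkshire peaks lowered the share, to 49.6% of 113 regions at 5000 bp and 33.3% of 27 at 10000 bp. It did so in Yorkshire-only regions too, to 22.9% and 16.3%, and in merged regions with no other region that near, to 18.9% and 11.8%.

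Members near an end differed from those inside. They had a median width of 951 bp (n = 183) against 646.5 bp (n = 132), and the medians in Wannanhua 1, 2 and 3 were 17, 36 and 34 tags against 11, 21 and 19. Their fold enrichment was lower, at 10.9, 8.37 and 8.84 against 15.6, 11.01 and 10.9. Merged regions as a whole were also wider near an end, 705 bp against 589 bp. On chromosome 1 the medians were 1037 bp near an end and 641 bp inside, and on chromosome 10 they were 742 and 734 bp. All 21 members of 2000 bp or more lay near an end, as did 88.1% of the 2173 merged regions of that width. Members under 1000 bp lay near an end in 44.7% of cases, against 31.5% of merged regions under 1000 bp.

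The widest members held many tags at low enrichment. Chromosome 1 from 2853240 to 2857184 (3945 bp) had 45, 202 and 166 tags in Wannanhua 1, 2 and 3, at 7.72 ± 1.35 fold enrichment (SD, n = 3). Chromosome 12 from 383799 to 387682 (3884 bp) had 98, 210 and 166 tags at 5.09 ± 0.43. Chromosome 11 from 86546467 to 86550080 (3614 bp) had 57, 88 and 160 tags at 5.85 ± 0.83. These 3 lie within 3 Mb of an end, and the score of the chromosome 12 region stood at only the 8.90th percentile on average. The widest of chromosome 10, from 70886700 to 70889894 (3195 bp), had 34, 151 and 43 tags, and the widest of chromosome 13, from 218430067 to 218432807 (2741 bp), had 97, 115 and 141.

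Members lay in many windows, with more in some than in others. They fell in 104 of the 155 windows of 5 Mb, at most 9 to a window, and 10 windows held 7 or more. Of the members, 49 (15.6%) had another member within 100 kb. These counts were not set beside those of an even spread. The 3 windows with 9 spanned 5000001 to 10000000 and 305000001 to 310000000 on chromosome 1 and 1 to 5000000 on chromosome 10, where members were 1.04, 1.07 and 1.19% of merged regions. The closest runs of 3 were on chromosome 1 from 8501030 to 8581738, on chromosome 13 from 213464659 to 213557189 and on chromosome 1 from 10187408 to 10311551. In the first of these runs the members had 43, 161 and 84 tags (from 8501030), 19, 76 and 47 tags (from 8543476) and 27, 65 and 48 tags (from 8580350) in Wannanhua 1, 2 and 3. The longest run thus held 3 members, and no run took in a large part of the 315.

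Around the members, peaks were dense in both breeds. Between 2 and 20 kb from their edges, a zone the rule did not use, peak density over the library's own mean was 1.34, 1.43 and 1.41 in Yorkshire 1, 2 and 3 and 1.57, 1.43 and 1.39 in Wannanhua 1, 2 and 3. The breeds overlapped, with means of 1.396 ± 0.046 and 1.46 ± 0.097 (SD, n = 3; two-sided exact permutation p = 0.5, where 3 against 3 allow no p below 0.1). All 6 libraries thus had more peaks around members than their own mean over the 5 chromosomes. Merged regions themselves numbered 160 per Mb within 5 Mb of an end and 88.0 per Mb beyond 40 Mb. Of the members, 58.1% lay within 20 Mb of an end, and density at like distances from the ends was not compared. Without Wannanhua 1 the difference between the breeds turned from 0.068 to -0.013. Around isolated Yorkshire-only regions the density was 1.25 ± 0.024 in Yorkshire and 1.27 ± 0.028 in Wannanhua.

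**Figure D5:**
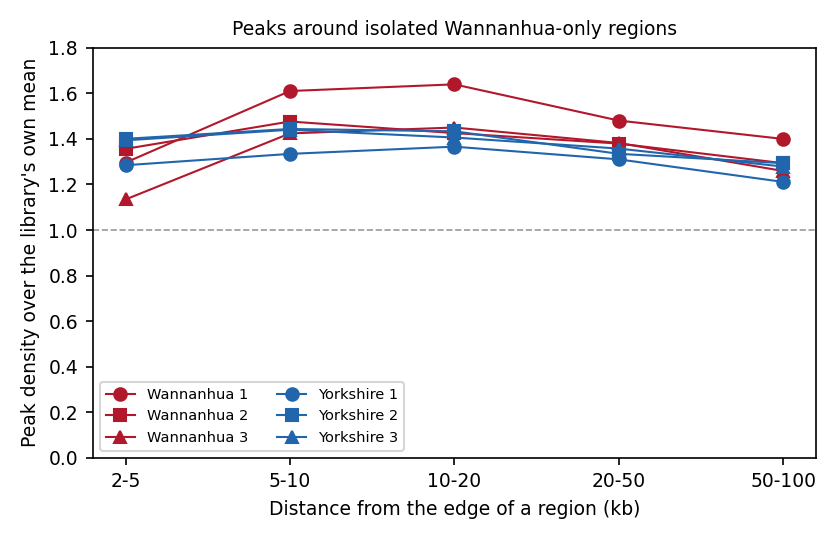
Peak density over each library's own mean (dashed line at 1) by distance in kb from the edge of isolated Wannanhua-only regions, Wannanhua in red and Yorkshire in blue. All 6 libraries lie above 1 in each zone, and from 5 to 100 kb Wannanhua 1 is the highest.

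Among shared regions near the members, the balance of tags lay further towards Wannanhua than among shared regions at large. Within 20 kb of 238 members (75.6%) lay 380 regions called in all 6 libraries, which are no members. Tags summed per region and library were tested with edgeR over all 19161 such regions. Of the 380, 10 (2.63%) were higher in Wannanhua at an adjusted p of 0.05 and 1 was higher in Yorkshire, where 0.543% and 0.151% of all regions tested were (0.694% in either direction). Their log2 fold change, Wannanhua over Yorkshire, had a median of 0.21, against -0.04 over all, and both medians were negative (-0.16 and -0.37) with called length as an offset. Near chromosome ends it was 0.34 in 231 neighbours, against 0.14 in all 5801 shared regions there. In the interior it was 0.03 in 149 neighbours, against -0.09. Of all shared regions, 1.24% near an end and 0.240% in the interior were higher in Wannanhua, against 2.60% and 2.68% of the neighbours. Their levels, as the median log2 deviation from each region's own mean, were -0.10, 0.06 and -0.25 in Yorkshire 1, 2 and 3 and 0.11, 0.16 and 0.10 in Wannanhua 1, 2 and 3. Wannanhua thus lay above Yorkshire without overlap, with Yorkshire 2 close below. The 750 shared regions within 20 kb of isolated Yorkshire-only regions had a median of 0.03, with 5 higher in Wannanhua and 1 in Yorkshire.

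The neighbour with the lowest adjusted p was chromosome 10 from 411328 to 412198, with tags of 10, 15 and 7 in Yorkshire 1, 2 and 3 against 17, 43 and 46 in Wannanhua 1, 2 and 3. Its log2 fold change was 1.54 with SE 0.27 (edgeR adjusted p = 0.00729), and a member lay 4377 bp away. The neighbour with the largest change spanned 218015066 to 218018859 on chromosome 13, where Yorkshire had 95, 76 and 13 tags and Wannanhua 224, 412 and 263 (log2 fold change 2.25, SE 0.50, edgeR adjusted p = 0.0268). The neighbour higher in Yorkshire spanned 45596110 to 45597002 on chromosome 12, where Yorkshire had 35, 48 and 31 tags and Wannanhua 9, 30 and 21 (log2 fold change -1.12, SE 0.25, edgeR adjusted p = 0.0305). These 3 were named after their values were seen. The breeds did not overlap in raw tags in any of the 3, though these are not scaled for the depth of the libraries.

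The number of calls rested on single libraries. With edgeR, 11 neighbours were called. Leaving out Yorkshire 1, 2 or 3 gave 0, 79 or 6, and leaving out Wannanhua 1, 2 or 3 gave 3, 1 or 2. The median log2 fold change of the neighbours stayed between 0.17 and 0.32. Over all regions tested 133 were called, and the same fits gave 1, 1864 or 67 and 53, 6 or 12. The whole test thus moved with the neighbours. Without Yorkshire 2 the share called was 20.8% of neighbours and 9.73% of all regions. The share was higher among neighbours in each of these fits except without Yorkshire 1, though most counts of neighbours are small. A sum of tags moves with the length that was called, and with called length as an offset 1 neighbour was called.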

How the data were processed

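MeDIP-seq peaks of 6 muscle libraries, 3 per breed, were used. Per the file headers the authors called peaks per library with MACS (version 1.4.2 in 5 of 6 headers), with no control file, a p cutoff of 1e-05, at most 1 tag per position and a regional background of 10000 bp; neither header nor labels name the aligner or the genome build. The deposited tag counts are raw. The deposited fold enrichment is a ratio to the local background of the same library. The deposited score is 10 times the negative log10 of p, under a broken heading. Without a control, copy number and mappability are uncorrected. Every list stops at 65516 peaks; the 5 chromosomes used (764 Mb) are complete in all 6. Peaks run past the last Sscrofa11.1 gene on all 5, so that gene table was not used. Peaks overlapping by 1 bp were merged. Members and settings were chosen with earlier results of these data known. Named were, by mean score percentile, the top 10 and the top 2 per chromosome, the farthest and widest per chromosome, 3 regions on each side of 2000 bp, and 3 runs. Other regions are marked where named. Tags in 19161 regions called in all 6 libraries (0 removed by filterByExpr) were tested with edgeR 4.0.16 (quasi-likelihood, robust, TMM, Benjamini-Hochberg) in R 4.3.3, with DESeq2 1.42.0 as an alternative; the scripts were tested on simulated data. Other values used Python 3.11.15, numpy 2.4.6, pandas 2.3.3, scipy 1.17.1 and matplotlib 3.10.9.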

Additional observations from a re-analysis of the deposited data

How the results depend on the processing

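The number of isolated Wannanhua-only regions (315) was 707, 113 and 27 with no Yorkshire overlap, 5000 bp and 10000 bp in place of 2000 bp, 834 with equal numbers of top peaks, 533 with peaks at or above the median score of their library, and 773 with peaks of at least 400 bp; with any 1 library dropped, the rule sets fewer conditions and gave 458 to 1192. The share near an end (58.1%) was 49.6% and 33.3% at 5000 and 10000 bp, 41.8% with peaks of at least 400 bp, 34.9%, 19.7% and 41.9% for end zones of 10 Mb, 5 Mb and the outer 10%, where merged regions had 18.5%, 9.06% and 25.2%, and 43.9 to 61.8% without a library. The median width (756 bp) was 592 bp at 10000 bp, 544 bp with summits and 250 bp on each side, 916.5 bp with equal peaks, 951 bp with peaks above the median score, and 652 to 823.5 bp without a library. The density difference around members (0.068) stayed positive in all alternatives run except without Wannanhua 1 (range -0.013 to 0.079 without a library; 0.138 with equal numbers of top peaks, 0.024 for 2 to 10 kb, and 0.075 for 2 to 50 kb, exact p = 0.1). The difference in libraries left out (16.9 points) was 15.2 to 29.0. The 11 called neighbours were 30 with DESeq2, 1 with called length as an offset, 2 within 5 kb, 25 within 100 kb, 0 to 79 without a library, 13 without scaling factors and 11 without a filter. Over all regions, 133 calls became 510 with DESeq2, 10 with the offset and 1 to 1864 without a library; without scaling factors 104 were higher in Wannanhua and 87 in Yorkshire, rather than 104 and 29. Neighbours had a median log2 fold change of 0.08 without scaling factors (-0.16 over all regions) and -0.16 with the offset. Causes were not tested. With the replicate number as a block, 16 neighbours and 273 regions were called; the deviations of same-numbered libraries correlated at -0.01, 0.03 and -0.05, so the numbers were not taken as pairs. The smallest peaks held 7 to 13 tags, depending on the library, and a region with fewer could not be called.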

Other observations

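Chromosome 14 is complete in all 6 lists only up to base 38283653 and was not used to choose the members. There the same rule found 20 isolated Wannanhua-only regions among 5582 merged regions (0.358%, against 0.356% on the 5 chromosomes), the seventh highest of the 20 groups of 3 libraries, and 25 Yorkshire-only regions. The Wannanhua-only regions had a median width of 669.5 bp, against 619 bp for merged regions, and 12 of the 20 (60.0%) lay within 20 Mb of the start, against 50.5% of merged regions. Of the 25 Yorkshire-only regions 16 lay there, a larger share than of the Wannanhua-only regions, unlike on the 5 chromosomes.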
